A study of Caenorhabditis elegans with 12 samples.

Results

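Adult Caenorhabditis elegans that carried pmk-1(km25), a deletion allele of the p38 MAP kinase gene pmk-1, were compared with the wild-type strain N2 after both had been held in sodium chloride solution. The comparison uses 6 of the 12 RNA-seq libraries of a study of 2 genotypes in 2 salts, 3 libraries of each genotype in NaCl, and covers all 13353 genes with enough counts to test of the 46904 genes listed. Each library was made from about 1000 synchronized whole animals on day 1 of adulthood, raised on agar with Escherichia coli OP50-1, washed in salt and left for 4 h in 100 mM NaCl without food. The other 6 libraries, from the same 2 genotypes held for 4 h in 100 mM KCl without food, entered the fit to estimate the spread and are used below only where a value is set beside its counterpart in KCl; the 2 solutions differ in their sodium and in their potassium, and food withdrawal is common to all 12. The labels describe biological replicates without saying whether they came from separate cultures, so the p-values measure the spread between these samples.

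PMK-1 is the last kinase of a conserved cascade in which the adaptor TIR-1 acts on the kinases NSY-1 and SEK-1. In the intestine the cascade maintains the basal and infection-induced expression of secreted immune effectors, largely through the transcription factor ATF-7. In the epidermis it is needed for the induction of antimicrobial peptides of the nlp family after wounding or fungal infection. The animals were fertile hermaphrodites, which make sperm first and then oocytes and carry embryos in the uterus, so whole-animal RNA also holds germline and embryo transcripts.

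The library totals lay between 8931797 and 11445709 counts over the 12 libraries, and no replicate pair agreed within sampling noise. The pmk-1 gene (chromosome IV, 8148794 to 8151266, forward strand, in the Ensembl release 115 annotation of the assembly WBcel235; no source used here gives the authors' build) had 217, 326 and 441 counts in wild-type NaCl 1 to 3 and 231, 200 and 180 in pmk-1 NaCl 1 to 3. It was at -0.45 ± 0.18 (log2 fold change ± SE, edgeR adjusted p 0.0809, and 0.0208 without wild-type NaCl 1). A gene-level count includes exons outside a deletion and does not check the genotype labels. The genotypes differed in the levels of sperm and embryo marker transcripts. Sperm or embryo content below means the level of these transcripts, as only RNA was measured. Summed sperm markers ranged from 302 to 677 CPM in wild type (CPM, counts scaled to a common library size with TMM factors) and from 3170 to 9743 in the mutant, and the later embryo markers from 760 to 956 and from 301 to 443. Ribosomal RNA took 0.931 to 2.51% of counts in wild type and 3.52 to 5.0% in the mutant. None of the 14 male markers, among them cwp and lov-1 genes, passed the filter on low counts, and together they had 22 to 30 counts per wild-type library and 11 to 17 per mutant library.

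**Figure D1:**
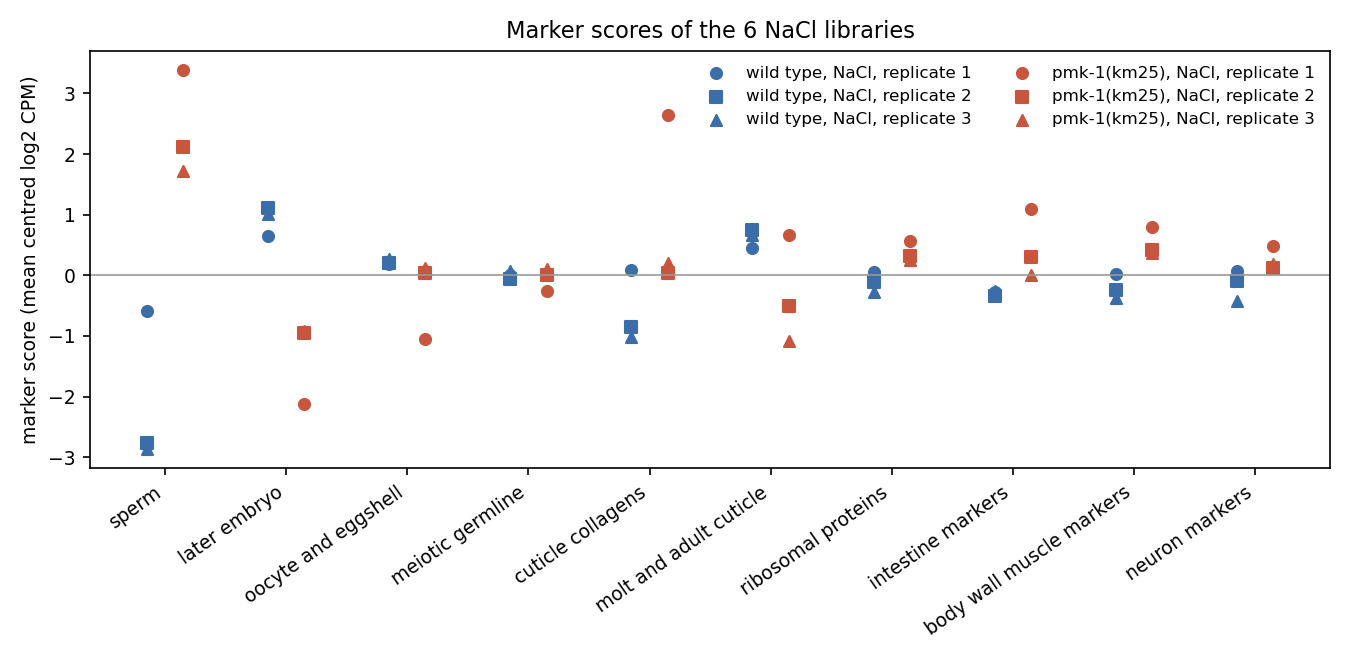
Marker scores of the 6 NaCl libraries. Each point is 1 library, the vertical axis gives the mean over list members of log2 CPM centred on the 12 libraries, and colours separate wild type from pmk-1(km25). Wild-type libraries have sperm scores of -2.87 to -0.59 and the mutant libraries of 1.73 to 3.39; for later embryo the ranges are 0.65 to 1.11 and -2.12 to -0.91.

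In NaCl, 2232 genes were higher in the mutant than in wild type (16.7% of those tested) and 1349 were lower (10.1%) at an edgeR adjusted p under 0.05, with a median log2 fold change of 0.06 over all genes. With library totals in place of TMM scaling the median over all genes became -0.05 and the split became 1918 higher (14.4%) and 1773 lower (13.3%). Blocking on replicate number gave 3123 (23.4%) and 2221 (16.6%), and the ribosomal RNA share as a covariate 1863 (14%) and 666 (4.99%). DESeq2 called 2568 higher (19.3%) and 1893 lower (14.2%). Without wild-type NaCl 2 the counts were 1076 and 625, and without wild-type NaCl 3 they were 1064 and 659. Without pmk-1 NaCl 1, 1192 genes were higher, and with the first replicates of all 4 groups left out 2275 were higher (17.2%) and 2081 lower (15.8%). In whole-animal RNA, fewer cells of a type and less RNA per cell cannot be told apart.

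The calls were then refitted with the sperm score of each library as a covariate, and separately with the later embryo score. With the sperm score, 11 of the 1349 falls and none of the 2232 rises kept an adjusted p under 0.05, and 15 genes were called (0.112%), each at a lower level in the mutant. In the fit with the embryo score 20 genes were higher (0.15%) and 75 lower (0.562%), among them 15 of the rises and 46 of the falls. Because the scores of the genotypes do not overlap, genotype and score share most of their variation in these fits, and the median SE over all genes grew from 0.276 to 0.502 with the sperm score and to 0.388 with the embryo score. A gene that lost its call was thus not shown to follow sperm or embryo content, and for most genes the genotype effect and these contents cannot be told apart.

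The 11 falls called in all of these fits were C17H12.8, K08D8.5, lys-2, dod-24, fipr-22, nlp-31, nas-11, K11H12.4, Y45F10D.6 and 2 annotated copies of clec-209. Several encode secreted defence proteins: lys-2 a lysozyme, nlp-31 and fipr-22 small antimicrobial or fungus-induced peptides, clec-209 a C-type lectin and C17H12.8, K08D8.5 and dod-24 proteins with a CUB-like domain. dod-24 (IV, 12940106 to 12941354) had 249, 238 and 330 counts in wild-type NaCl 1 to 3 and 9, 10 and 7 in the mutant, a change of -4.74 ± 0.27 (edgeR adjusted p 1.49e-05), with -4.65 ± 0.45 beside the sperm score and -4.37 ± 0.61 beside the embryo score. Every wild-type library lay above every mutant library, as in the other 10. The astacin-type metalloprotease gene nas-11 had 899, 867 and 904 counts against 215, 180 and 139, a change of -2.12 ± 0.24 (edgeR adjusted p 9.24e-04). Its exons overlap smf-2 on the opposite strand, and the strandedness of the counting is not given, so reads of these genes cannot be told apart. The 2 clec-209 copies hold equal counts of 558, 505 and 726 against 41, 74 and 52, so that their assignment to a copy is uncertain. K11H12.4 fell from 146, 106 and 105 counts to 2, 1 and 4, a change of -5.42 ± 0.47, and Y45F10D.6, which overlaps Y45F10D.7 on the opposite strand, from 203, 162 and 173 to 11, 6 and 2, a change of -4.61 ± 0.47 (edgeR adjusted p 2.21e-04 and 5.48e-04).

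**Figure D2:**
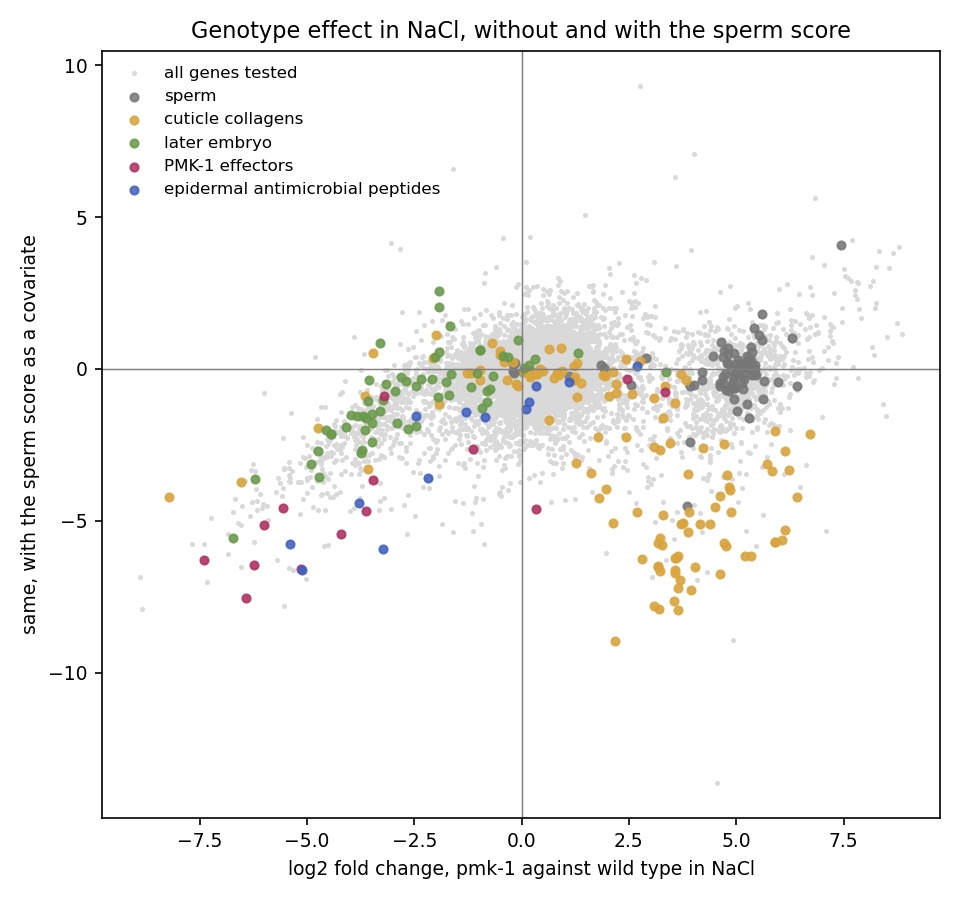
Genotype effect in NaCl without and with the sperm score as a covariate. Each point is a gene, the horizontal axis gives its log2 fold change in the 12-library fit and the vertical axis the same with the covariate, and coloured points are members of 5 lists. The covariate is the mean of the sperm genes, so that their own median of 5.0 goes to about 0 by construction. The PMK-1 effectors have a median of -3.92 without it and of -4.65 with it.

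Intestinal effectors known to need PMK-1 were mostly low in the mutant. Of 16 listed effectors, 14 could be tested, 10 were lower in the mutant and 2 were higher, with a median of -3.92 (-3.54 with 2 genes at their bound), beside 0.06 over all genes. Leaving out each library in turn gave 10 or 11 falls, leaving out the first replicates gave 11, and the replicate block gave 11. The summed effectors ranged from 139.9 to 216.2 CPM in wild type and from 21.5 to 46 CPM in the mutant. With the sperm score 3 of the 14 were called lower and with the embryo score 4, at medians of -4.65 and -4.02. Because the filter passes a gene that is high in 1 genotype only, this count describes the members that passed.

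C17H12.8 and its neighbour C17H12.6 encode CUB-like proteins and lie 489 bp apart on chromosome IV (6818703 to 6820575 and 6821065 to 6822506). C17H12.8 had 426, 233 and 354 counts in wild type and 4, 5 and 1 in the mutant, a change of -6.42 ± 0.53 (edgeR adjusted p 1.71e-04). C17H12.6 had 6, 10 and 13 counts in wild type and 0 in each mutant library, and was at least 8.18-fold lower against a floor of 3 counts over the group. Both genes were thus close to or at 0 in every mutant library. A second adjacent pair, K08D8.4 and K08D8.5 (IV, 12907469 to 12909998 and 12910647 to 12912129), had 134, 83 and 153 counts against 13, 14 and 2, and 119, 83 and 77 against 5, 3 and 5. Their changes were -3.46 ± 0.67 and -4.21 ± 0.64 (edgeR adjusted p 0.00569 and 0.00309), with no overlap between genotypes.

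The lysozyme gene lys-2 (V, 10280307 to 10281474) had the highest counts of the effectors that fell, with 845, 539 and 788 in wild type and 53, 48 and 51 in the mutant. The mean fell from 73.1 ± 19 to 5.89 ± 0.40 CPM (SD, n = 3), a log2 change of -3.63 ± 0.35 (edgeR adjusted p 3.94e-04). The infection response genes irg-4 and irg-5, CUB-like genes often used as reporters of the cascade, were also low. irg-4 had 70, 80 and 97 counts in wild type and 0, 1 and 2 in the mutant, a ratio of 70.9 (95% exact counting interval 24 to 346). irg-5 had 49, 69 and 128 against 3, 11 and 8, a change of -3.21 ± 0.57 (edgeR adjusted p 0.00462), and with the embryo score it was at -0.42 ± 1.09. sysm-1, a reporter gene of PMK-1 activity also known as T24B8.5, had 15, 36 and 21 counts against 0, 1 and 0, a ratio of 62.0 (10.8 to 2483), and dod-22 had 27, 6 and 20 against 0, 1 and 0, a ratio of 45.7 (7.85 to 1837). The C-type lectin clec-67 had 13, 17 and 37 against 0 in each, at least 18.6-fold lower. Counting intervals and floors cover counting error only.

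The remaining 4 tested effectors were not called lower. clec-85, a further C-type lectin, was also low in the mutant, with 138, 140 and 151 counts against 90, 38 and 42 and no overlap, but missed the threshold at -1.13 ± 0.43 (edgeR adjusted p 0.0713), which became 0.0173 without pmk-1 KCl 1, 0.0279 without pmk-1 NaCl 1, 4.7e-04 without the first replicates, 0.00969 with the replicate block and 0.0077 with the embryo score. F01D5.5 was at 0.34 ± 0.91 (edgeR adjusted p 0.787), with 80, 37 and 15 counts in wild type and 88, 38 and 28 in the mutant. clec-60 was higher, with 7, 3 and 0 counts in wild type and 50, 29 and 16 in the mutant, 3.35 ± 0.95 (edgeR adjusted p 0.0244), but the call was lost without wild-type NaCl 2 or 3 or pmk-1 NaCl 1, at 0.0896, 0.0789 and 0.0712. dct-17, with 11, 8 and 11 counts against 96, 28 and 22, passed at 2.46 ± 0.84 (edgeR adjusted p 0.0491) and lost its call at 0.0522 to 0.237 without any one of 9 libraries, namely all 3 of each wild-type group, pmk-1 KCl 2, pmk-1 NaCl 1 and pmk-1 NaCl 2. In both genes pmk-1 NaCl 1 held the highest count. The mucin-like gene mul-1 had too few counts to test, with 2, 2 and 4 against 1, 2 and 0, and irg-6 was at 0 in every library.

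**Figure D3:**
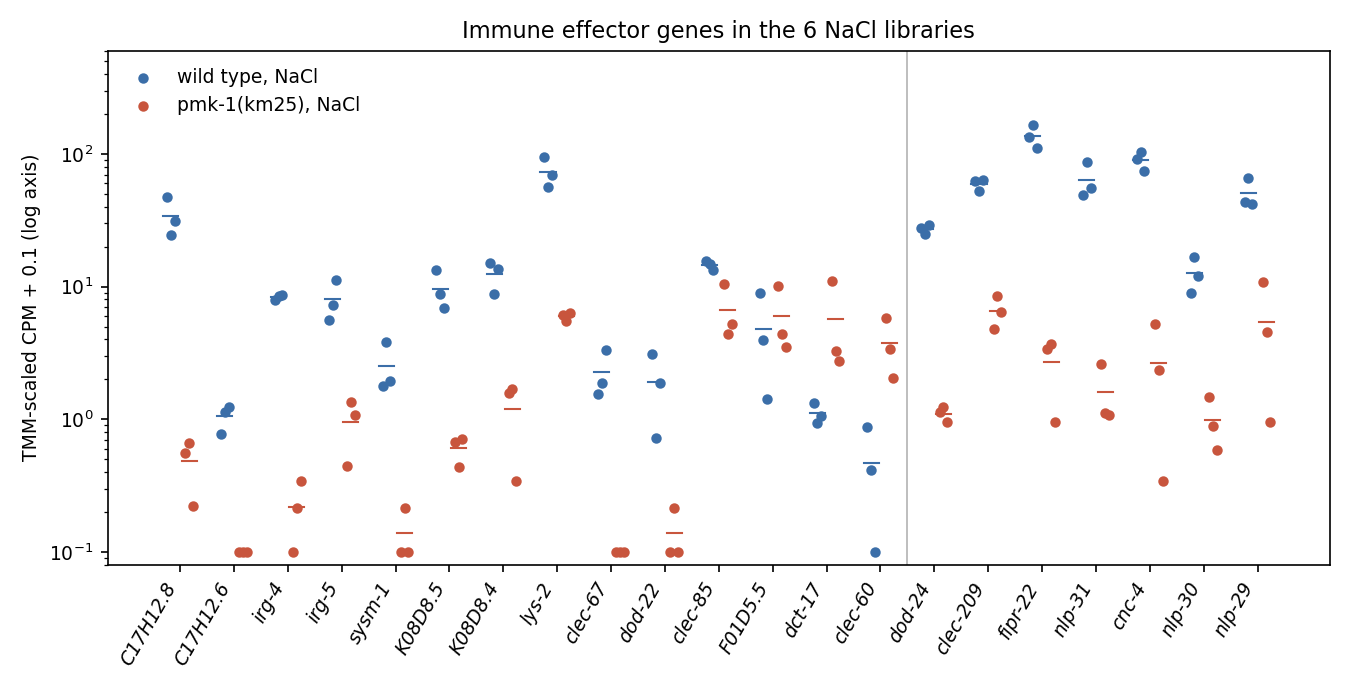
Immune effector genes in the 6 NaCl libraries. The vertical axis gives TMM-scaled CPM + 0.1 on a log scale, points from left to right are replicates 1 to 3, bars are group means, and the grey line separates the 14 effectors tested from 7 other defence genes. Counts of C17H12.6 and clec-67 are 0 in every mutant library, and the genotypes do not overlap in C17H12.8, lys-2, dod-24 and fipr-22.

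Among the epidermal antimicrobial peptides, small secreted peptides of the nlp and cnc clusters, 7 of 13 tested were lower in the mutant and 1 was higher, with a median of -1.28. Over all genes 10.1% were lower and 16.7% higher. The summed list overlapped between genotypes, at 457 to 629 CPM in wild type and 263 to 696 in the mutant, with pmk-1 NaCl 1 the highest. With the ribosomal RNA share as a covariate 2 of the 13 were lower and 2 higher, with a median of -0.45. Without wild-type NaCl 2, 4 were lower, and the replicate block gave 8 lower and 2 higher. The rise was lost without wild-type NaCl 3 or pmk-1 NaCl 1, and 2 were higher without pmk-1 KCl 1, pmk-1 NaCl 2 or pmk-1 NaCl 3. The cluster genes nlp-31, nlp-30 and nlp-29 lie next to each other on chromosome V (3980055 to 3980622, 3981980 to 3982741 and 3984425 to 3984847). nlp-31 had 443, 842 and 627 counts in wild type and 22, 9 and 8 in the mutant, a fall from 64.0 ± 21 to 1.5 ± 0.88 CPM (SD, n = 3) and a change of -5.40 ± 0.52 (edgeR adjusted p 3.94e-04). nlp-30 had 79, 160 and 137 against 12, 7 and 4, a change of -3.80 ± 0.81 (edgeR adjusted p 0.00748). nlp-29, the reporter gene of the epidermal response and picked here after its values were seen, had 386, 634 and 478 against 95, 39 and 7, a change of -3.22 ± 0.94 (edgeR adjusted p 0.0269). Its call was lost at 0.0813 without wild-type NaCl 2, 0.0615 without wild-type NaCl 3, 0.0704 without pmk-1 NaCl 2 and 0.0508 without pmk-1 NaCl 3, and it held at 2.2e-05 without the first replicates. No wild-type library overlapped a mutant one in these 3 genes, and pmk-1 NaCl 1 was the highest mutant library in each.

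Caenacin genes, induced in the epidermis through the TGF-beta ligand DBL-1, fell in the same libraries. cnc-4 (V, 1447195 to 1447707) had 818, 1000 and 847 counts against 45, 20 and 2, a change of -5.12 ± 0.91 (edgeR adjusted p 0.00462), and cnc-3, 296 bp away, had 27, 36 and 63 against 4, 9 and 6, a change of -2.46 ± 0.45 (edgeR adjusted p 0.00495). The most abundant member of the list, nlp-24, was at 1.11 ± 0.38 (edgeR adjusted p 0.0521), which became 0.0425 without pmk-1 KCl 1, 0.0346 without pmk-1 NaCl 2, 0.0227 without pmk-1 NaCl 3 and 0.0168 with the replicate block. With the sperm score nlp-31 alone of the list was called, and with the embryo score 5 of the 13 were lower.

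The fungus-induced peptides, named fip and fipr, split in 2 directions. Of 20 tested, 12 were higher and 5 lower, with a median of 1.72, beside 16.7% higher and 10.1% lower over all genes. The summed list did not rise in each mutant library. It ranged from 227 to 318 CPM in wild type and was 385, 202 and 171 CPM in pmk-1 NaCl 1 to 3. The falls also numbered 5 without each single library in turn and without the first replicates, whereas the rises numbered 5 without wild-type NaCl 2, 7 without wild-type NaCl 3 and 7 without pmk-1 NaCl 1. fipr-22 (I, 14155429 to 14156336) had 1210, 1596 and 1251 counts in wild type and 29, 32 and 7 in the mutant, a fall from 137 ± 28 to 2.59 ± 1.5 CPM (SD, n = 3) and a change of -5.70 ± 0.41 (edgeR adjusted p 1.15e-04). Its neighbour fipr-23, 1233 bp away, had 71, 54 and 50 against 0, 3 and 0, a ratio of 50.2 (16.9 to 246), and fip-6 had 132, 139 and 93 against 10, 4 and 0, a change of -4.50 ± 0.79 (edgeR adjusted p 0.00435). The other 2 falls, fipr-26 and fipr-24, were at -5.32 and -3.76. The list's median with the sperm score was -0.43, no rise was called in that fit, and the members' first-replicate difference within the KCl libraries had a median of 1.08; the part of sperm content in the rises was not tested apart from genotype.

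Of the 17 genes of the cascade tested, 3 were higher and 1 lower, 23.5% beside 26.8% of all genes, with a median of 0.00, the replicate block gave 4 and 3, and without the first replicates there were 1 and 3. nipi-3, a Tribbles-like pseudokinase that acts upstream of the kinases in the epidermis, rose from 76.7 ± 4.0 to 128 ± 16 CPM (SD, n = 3), 0.74 ± 0.12 (edgeR adjusted p 0.00343), with 647, 758 and 902 counts against 1275, 1102 and 940. The related p38 gene pmk-3 passed at 0.69 ± 0.20 (edgeR adjusted p 0.0258), and its adjusted p was 0.0515, 0.064 and 0.11 without wild-type NaCl 1, 2 and 3 and 0.126 without pmk-1 NaCl 1. cebp-1, a C/EBP transcription factor that NIPI-3 restrains, passed at 0.87 ± 0.26 (edgeR adjusted p 0.0303) and lost its call at 0.0719, 0.0659 and 0.112 when wild-type NaCl 1, 2 or 3 was left out and at 0.156 and 0.0599 when pmk-1 NaCl 1 or 2 was. olrn-1, a membrane protein that promotes the pathway, fell by 1.44 ± 0.35 on the log2 scale (edgeR adjusted p 0.0124), with 54, 59 and 88 counts against 27, 18 and 18, and was at 0.0512 without wild-type NaCl 3. Of the 4 calls, that of nipi-3 alone passed without each library. No gene of the cascade, nipi-3 included, was called with the sperm score or the embryo score as a covariate. With the ribosomal RNA share 4 were higher and 0 lower.

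The other cascade genes did not pass the test. tir-1 was at 0.62 ± 0.24 (edgeR adjusted p 0.0716, and 0.0408 without pmk-1 NaCl 3), nsy-1 at 0.00 ± 0.22 and sek-1 at 0.53 ± 0.23 (adjusted p 0.0482 with the replicate block). The second p38 gene of the operon, pmk-2, was at -0.28 ± 0.26. The transcription factors atf-7 and skn-1 were at -0.24 ± 0.10 and -0.41 ± 0.17, with skn-1 passing at 0.039 without pmk-1 NaCl 3 and at 0.0115 with the block. The phosphatase vhp-1 was at 0.30 ± 0.23, the protein kinase C and D genes tpa-1 and dkf-2 at -0.25 ± 0.23 and 0.03 ± 0.11, the scaffold rack-1 at 0.41 ± 0.18, mkk-4 at -0.08 ± 0.22 and mom-4 at -0.49 ± 0.21, which passed at 0.0449 without pmk-1 NaCl 2 and at 0.02 with the block. Of 9 genes of the JNK and KGB-1 stress kinase pathway, 3 were higher and none lower. This is 33.3% of them, beside 26.8% of all genes. Only 1 was higher without wild-type NaCl 2, wild-type NaCl 3, pmk-1 NaCl 1 or pmk-1 NaCl 2. The AP-1 subunit gene jun-1 passed without each library, at 0.87 ± 0.18 (edgeR adjusted p 0.00707). No gene of this list was called with the ribosomal RNA share, the sperm score or the embryo score as a covariate.

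Of the other defence families, lysozymes and C-type lectins were called in both directions, as were all genes (16.7% higher and 10.1% lower). The shares called either way were 45.5% and 41.9%, beside 26.8% of all genes. Of 11 lysozymes 3 were higher and 2 lower, with a median of -0.25: lys-5 rose by 2.14 ± 0.34 and lys-4 by 0.97 ± 0.22 on the log2 scale (edgeR adjusted p 0.00351 and 0.00978), and lys-1 fell by 0.61 ± 0.16 (edgeR adjusted p 0.0175; 0.0568 and 0.0531 without wild-type NaCl 1 and 2). Of 86 C-type lectins, sugar-binding proteins of which many answer to infection, 28 were higher and 8 lower, with a median of 0.55. The rises numbered 13 without wild-type NaCl 2, 12 without wild-type NaCl 3 and 18 without pmk-1 NaCl 1; the replicate block gave 31 and 14, and without the first replicates there were 25 and 15. clec-52 had 53, 55 and 63 counts in wild type and 372, 190 and 140 in the mutant, 2.24 ± 0.31 (edgeR adjusted p 0.00203), and the thaumatin-like gene thn-1 had 37, 16 and 16 against 138, 114 and 61, 2.33 ± 0.44 (edgeR adjusted p 0.00524). In both genes the genotypes did not overlap. Of the 5 thaumatin and antibacterial factor genes that hold thn-1, 2 were higher and none lower. Of 10 infection genes that do not depend on PMK-1, 1 was lower and none higher (2 with the replicate block), and the fall lost its call without wild-type NaCl 1, 2 or 3 or pmk-1 NaCl 2 or 3.

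**Figure D4:**
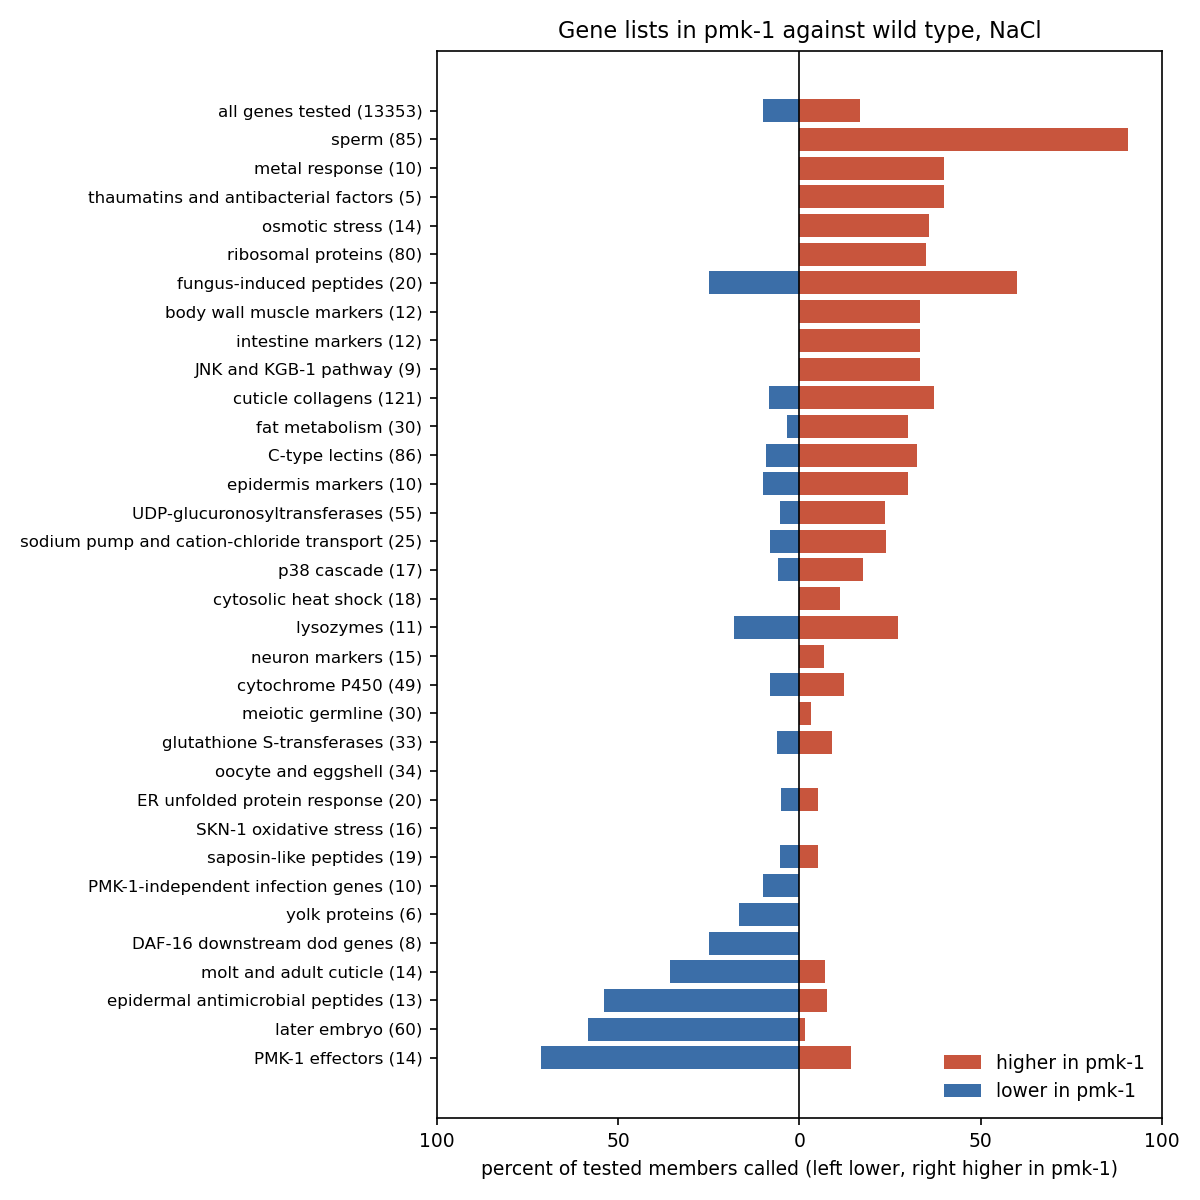
Share of tested members called in each gene list, lower to the left and higher to the right, as a percentage, with the number tested in brackets. Sperm genes (77 of 85 higher) and PMK-1 effectors (10 of 14 lower) stand at the ends, beside 16.7% higher and 10.1% lower over all genes.

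Detoxification and stress lists were called at shares from 0.0% (SKN-1 oxidative stress) to 40% (metal response), beside 26.8% of all genes. Of 55 UDP-glucuronosyltransferases, which conjugate small molecules, 13 were higher and 3 lower; the rises numbered 5 without wild-type NaCl 2, 6 without wild-type NaCl 3 and 5 without pmk-1 NaCl 1, and without the first replicates 10 were higher and 9 lower. ugt-49 rose by 1.07 ± 0.18 and ugt-44 fell by 2.15 ± 0.42 on the log2 scale (edgeR adjusted p 0.00414 and 0.00569), while ugt-57 had 7, 52 and 74 counts against 2, 0 and 0, a ratio of 57.3 (15.5 to 478). Of 49 cytochrome P450 genes 6 were higher and 4 lower. The counts were 3 and 0 without wild-type NaCl 2 or 3, 3 and 2 without pmk-1 NaCl 1, 10 and 10 without the first replicates, and 10 and 6 with the block. Falls numbered 1 or 2 when pmk-1 NaCl 2 or 3, wild-type NaCl 1, or number 1 or 2 of wild type in KCl was left out. cyp-14A5 had 1129, 1108 and 735 counts in wild type and 5626, 2929 and 2773 in the mutant, 2.10 ± 0.30 (edgeR adjusted p 0.0024). Of 33 glutathione S-transferases 3 were higher and 2 lower: gst-5 rose by 1.57 ± 0.32 and gst-13 fell by 1.38 ± 0.27 (edgeR adjusted p 0.0067 and 0.00597). Only 1 fall of that family was called without wild-type NaCl 1 or 2 or any one of the pmk-1 NaCl libraries.

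None of 16 SKN-1 oxidative stress genes was called by edgeR, with 1 at an unadjusted p under 0.05 in each direction and 1 call in each direction by DESeq2 and by the replicate block. Of 18 cytosolic heat shock genes 2 were higher, and 4 with the replicate block. Leaving out the first replicates gave 9 higher and 2 lower, and leaving out wild-type NaCl 1 gave 4 and 1. Only 1 was higher when wild-type NaCl 2, wild-type NaCl 3 or pmk-1 NaCl 1 was left out. Of the 2 called, hsp-43, a small heat shock protein, had 504, 500 and 475 counts against 4807, 1562 and 702, 2.44 ± 0.52 (edgeR adjusted p 0.0077). pmk-1 NaCl 1 lay far above the other mutant libraries there. The abundant chaperone hsp-90 was at -0.02 ± 0.14. Of 20 unfolded protein response genes, which answer to stress in the endoplasmic reticulum, 1 was higher and 1 lower (2 with the block on number, 5 if the first replicates were left out); the rise was atf-4, the transcription factor of the integrated stress response, at 0.63 ± 0.11 (edgeR adjusted p 0.00394), with 665, 646 and 776 counts against 1007, 1016 and 783. Of 14 osmotic stress genes 5 were higher and none lower, which became 3 and 2 without the first replicates, and 3 were higher when wild-type NaCl 1 was left out and none when wild-type NaCl 2, wild-type NaCl 3 or pmk-1 NaCl 1 was. Of 10 metal response genes 4 were higher, with 2, 2 and 1 when wild-type NaCl 1, 2 or 3 was left out and 0 and 2 when pmk-1 NaCl 1 or 2 was. Of 19 saposin-like peptides 1 was higher and 1 lower (3 and 1 without the first replicates or with the block). No rise was called without wild-type NaCl 2, wild-type NaCl 3 or pmk-1 NaCl 1, the first 2 of which also ended the fall, and 3 rises without pmk-1 KCl 1. Of 8 dod genes, known as downstream of the transcription factor DAF-16, 2 were lower (3 without the first replicates).

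Ion transport genes were called in both directions, 32% of those tested beside 26.8% of all genes (16.7% higher and 10.1% lower). Of 25 genes of sodium pumps, exchangers and cation-chloride transport 6 were higher and 2 lower, with a median of 0.60, the replicate block gave 10 and 2, and without the first replicates there were 6 and 4. catp-3, an alpha subunit of the P-type sodium pump family that was picked here after its values were seen, had 7312, 7541 and 8269 counts in wild type and 2050, 791 and 379 in the mutant. Its mean fell from 775 ± 45 to 123 ± 98 CPM (SD, n = 3), a change of -2.65 ± 0.65 (edgeR adjusted p 0.0129), and it stayed under the threshold without each library and with the embryo score (-5.60 ± 0.77, edgeR adjusted p 0.0062), but not with the sperm score (-4.16 ± 1.28). The related alpha subunit catp-4 had 27, 11 and 5 counts against 905, 223 and 153, 5.03 ± 0.99, and the beta subunit nkb-2 had 7, 1 and 1 against 295, 82 and 50, 5.67 ± 1.2 (edgeR adjusted p 0.00581 and 0.00726). Both were at a negative value with the sperm score, -0.69 and -0.85, and both were higher in first replicates within KCl, by 2.11 and 2.20 on the log2 scale. The chloride channel clh-1 rose by 1.21 ± 0.16 and the sodium-proton exchanger nhx-1 by 2.69 ± 0.59 (edgeR adjusted p 0.00175 and 0.00853), and eat-6, the main sodium pump alpha subunit of muscle and neurons, was at 0.06 ± 0.20.

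Of 30 fat metabolism genes 9 were higher and 1 lower, 33.3% beside 26.8% of all genes. The counts were 5 and 0 without wild-type NaCl 2 or 3, and 12 and 2 without the first replicates. The fatty acid desaturases fat-2 and fat-3 rose by 0.74 ± 0.16 and 0.98 ± 0.20 on the log2 scale, the elongase elo-1 by 0.57 ± 0.12 and the nuclear receptor nhr-80, an activator of desaturases, by 1.11 ± 0.22 (edgeR adjusted p 0.00742, 0.00638, 0.00655 and 0.00591). Wild-type and mutant libraries did not overlap in fat-2, with 4217, 3288 and 3845 counts against 5766, 5632 and 5168. With the sperm score its change was 0.03, and the part of sperm content in this rise was not tested apart from genotype.

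Collagens, epidermis markers and molt and adult cuticle genes were called in both directions, and intestine, muscle and neuron markers only higher. Over all genes 16.7% were higher and 10.1% lower. Of 121 cuticle collagens tested, 45 were higher and 10 lower, with a median of 2.81. The summed collagens ranged from 23695 to 29209 CPM in wild type and from 35874 to 57748 in the mutant. Collagen scores overlapped, at 0.08, -0.86 and -1.01 in wild-type NaCl 1 to 3 and 2.64, 0.05 and 0.21 in pmk-1 NaCl 1 to 3. The rises numbered 10 without wild-type NaCl 2, 10 without wild-type NaCl 3 and 14 without pmk-1 NaCl 1, and 85 with the replicate block. The collagens' first-replicate difference within KCl had a median of 1.74, and their median with the sperm score was -2.57. The adult collagen col-19 had 9833, 8210 and 9748 counts against 19527, 13627 and 13349, 0.94 ± 0.20 (edgeR adjusted p 0.00708). Of the intestine and body wall muscle markers, 4 of 12 were higher in each list, 7 and 10 with the replicate block, 5 and 8 in the fit that leaves out the first replicates, and 1 of 12 in each without wild-type NaCl 2 or pmk-1 NaCl 1. The intestine count was also 1 without wild-type NaCl 1, 2 without wild-type KCl 2, wild-type KCl 3 or wild-type NaCl 3, and 7 without pmk-1 NaCl 3. The muscle count was 1 without wild-type NaCl 3, 2 without wild-type KCl 2, pmk-1 KCl 3 or pmk-1 NaCl 2, and 8 without pmk-1 KCl 1. The troponin I gene tni-1 rose by 1.75 ± 0.34 (edgeR adjusted p 0.00552), the myosin heavy chain unc-54 was at 0.62 ± 0.31 (edgeR adjusted p 0.144, and 0.028 with the block), and the epidermal GATA factor elt-3 rose by 1.32 ± 0.21 (edgeR adjusted p 0.00351). Of 10 epidermis markers 3 were higher and 1 lower, and of 15 neuron markers 1 was higher (2 with the block or without the first replicates, and none when wild-type KCl 2, pmk-1 KCl 3, wild-type NaCl 2 or 3 or any pmk-1 NaCl library was left out). Of 14 molt and adult cuticle genes 1 was higher and 5 lower (2 higher without wild-type KCl 1, pmk-1 NaCl 3 or the first replicates, and 3 with the block).

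Of 80 cytosolic ribosomal protein genes, 28 were higher and none lower, with a median of 0.47, and 74 had groups that did not overlap in that direction, beside 51.3% of all genes not overlapping in either direction. The count was 64 with the replicate block, 11 when the first replicates were left out, and 2 with the ribosomal RNA share as covariate, and it ran from 2 to 49 when single libraries were left out: 49 without wild-type KCl 3, 14 without wild-type KCl 2 and 12 without pmk-1 KCl 3. Leaving out wild-type NaCl 1, 2 or 3 gave 15, 3 or 2, and leaving out pmk-1 NaCl 1, 2 or 3 gave 3, 3 or 13. rpl-11.2 rose by 0.95 ± 0.20 (edgeR adjusted p 0.00784), and the abundant rpl-3 was at 0.44 ± 0.20 (edgeR adjusted p 0.116). Ribosomal RNA shares were higher in the mutant libraries than in the wild-type ones. In pmk-1 NaCl 1 to 3 they were 3.52, 4.32 and 5.0% of counts, beside ribosomal protein scores of 0.57, 0.32 and 0.26. In wild-type NaCl 1 to 3 they were 2.51, 0.931 and 1.02%, beside scores of 0.05, -0.11 and -0.28. The shares do not overlap between the genotypes in NaCl, and the part of each in the result cannot be told apart. The same covariate moved other counts by more than 1.5 times, among them the following. Falls went from 10 to 3 in the collagens, from 4 to 0 in the cytochrome P450 genes, from 3 to 0 in the UDP-glucuronosyltransferases and from 2 to 0 in the ion transport genes. Rises went from 9 to 4 in fat metabolism and from 4 to 1 in the muscle markers. They went from 3 to 0 in the JNK and KGB-1 genes, from 2 to 0 in the thaumatin list and from 4 to 2 in metal response. Falls also went from 5 to 2 in the molt and adult cuticle genes and from 0 to 3 in the oocyte and eggshell genes.

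Sperm transcripts were high in the mutant. Of 99 sperm genes 85 were tested, 77 were higher and none lower, with a median of 5.0 (4.98 with 1 gene at its bound); the count was 68 to 78 when single libraries were left out and 76 without the first replicates. The major sperm protein gene msp-59 had 178, 10 and 10 counts in wild type and 3923, 1443 and 1129 in the mutant, 5.14 ± 1.15 (edgeR adjusted p 0.00888). msd-1, which encodes a major sperm protein domain, had 39, 6 and 9 against 1296, 521 and 429, and ssp-9 had 41, 5 and 8 against 1164, 532 and 317, changes of 5.53 ± 0.83 and 5.36 ± 0.91 (edgeR adjusted p 0.00281 and 0.00409). The first replicate was the highest of its genotype in each of these genes. The sperm histone gene htas-1 rose by 5.42 ± 0.78 and spe-46, needed for sperm formation, by 4.65 ± 0.78 (edgeR adjusted p 0.0024 and 0.00405). No male marker passed the filter, as given above.

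Embryo transcripts were low. Of 74 later embryo genes 60 were tested, 35 were lower and 1 higher, with a median of -2.56. The falls numbered 23 without wild-type NaCl 2, 21 without wild-type NaCl 3, and 47 without the first replicates. hch-1, the protease needed for hatching, had 88, 284 and 267 counts in wild type and 0, 7 and 0 in the mutant, a change of -6.21 ± 0.86 (edgeR adjusted p 0.00209), and the homeobox gene ceh-36 had 47, 60 and 57 against 0, 0 and 1, a ratio of 141 (25 to 5613). The embryonic nuclear receptor nhr-25 fell by 3.48 ± 0.45 and pha-4, the organ identity factor of the pharynx, by 1.68 ± 0.25 on the log2 scale (edgeR adjusted p 0.00155 and 0.00248). Some collagen and apical matrix genes were low as well, although of 121 cuticle collagens tested 45 were higher and only 10 lower. Whether the transcripts of these low genes came from embryos was not tested. The collagen gene dpy-14 had 254, 827 and 954 counts against 5, 12 and 1, a change of -6.55 ± 0.75, and dpy-17 and dpy-3 were at -4.75 ± 0.66 and -3.65 ± 0.66 (edgeR adjusted p 9.82e-04, 0.00218 and 0.0047). noah-1, fbn-1 and let-653, apical matrix genes that shape the embryo, fell by 3.79 ± 0.49, 3.90 ± 0.50 and 1.98 ± 0.39 (edgeR adjusted p 0.00144, 0.00144 and 0.00569). Wild-type NaCl 1 had the fewest counts of the wild-type libraries in hch-1 and dpy-14.

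None of 34 oocyte and eggshell genes was called by edgeR, 2 were lower at an unadjusted p under 0.05 and 2 were lower by DESeq2, with a median of -0.46. In 21 of them every mutant library lay below every wild-type library, beside 51.3% of all genes not overlapping in either direction. The replicate block called 10 lower, the fit without the first replicates 3, the fit without pmk-1 NaCl 3 called 5 and that without pmk-1 NaCl 2 called 1. The eggshell gene cbd-1 had 18912, 19997 and 26965 counts against 7364, 17312 and 16269, -0.46 ± 0.25 (edgeR adjusted p 0.19). Of 30 meiotic germline genes 1 was higher (2 higher and 3 lower with the replicate block, 2 of each when first replicates were left out), with a median of -0.07, and gld-1, a translational repressor of the germline, was at -0.01 ± 0.14. Of the 6 yolk protein genes, made in the intestine and taken up by oocytes, only vit-5 was called, at -0.78 ± 0.25 (edgeR adjusted p 0.0396; 0.0521 when wild-type KCl 2 was left out, 0.101 and 0.135 for wild-type NaCl 2 and 3, and 0.127 for pmk-1 NaCl 1), the block called 4 lower, and without the first replicates 3 were lower. The most abundant, vit-6, was at -0.26 ± 0.19.

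The first replicates differed from the other replicates in sperm content in both genotypes, and the same contrast within the 6 KCl libraries, which share no library with the NaCl comparison, was set beside it after the data had been seen. The 2232 genes higher in the mutant had a median first-replicate difference of 0.78 in KCl, positive in 90.2% of them, beside 51.2% of all genes. The 1349 lower genes had a median of -0.33, negative in 86.7%, beside 48.8% of all genes. The PMK-1 effectors, lower in the mutant at a median of -3.92, had a first-replicate median of 0.43, opposite in sign. Outside the germline, embryo and male lists, 1247 rises had a mean of at least 5 CPM and groups that did not overlap. Of these, 422 had a first-replicate difference in KCl under 0.3 in size on the log2 scale. The share of all genes under that limit was not computed, so the 422 are not shown to be a set apart. Over all genes the median first-replicate difference was 0.01, and 162 genes (1.21%) were called for it by edgeR. A few of the 422 with gene names and large changes are given here, chosen after their values were seen. With the sperm score none of the 2232 rises kept its call, those given here included. The cyclic nucleotide-gated channel homologue cng-1 had 57, 50 and 55 counts against 257, 154 and 235, 2.20 ± 0.34, the F-box gene fbxa-157 had 26, 21 and 12 against 148, 98 and 65, 2.55 ± 0.41, and mdl-1, a MAD-family transcription factor, had 196, 184 and 177 against 549, 664 and 423, 1.74 ± 0.22 (edgeR adjusted p 0.00314, 0.00357 and 0.00137).

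The genotype effect was set beside that in KCl, where 24.4% of genes were called. Of the genes higher in NaCl 1462 were also higher in KCl, which is 65.5% of the NaCl list and 72.0% of the KCl list, where 15.2% of all genes were higher. Of the lower genes 808 were lower in both, 59.9% and 65.9% of the lists, where 9.18% of all genes were lower in KCl, and 13 genes were called in opposite directions. Across genes, which are not independent replicates, the effects in the salts were related with r of 0.91 (Pearson) and rho of 0.84 (Spearman). The effectors were at a median of -4.77 in KCl with 11 of 14 lower, the sperm list at 5.14 with 74 of 85 higher. Other lists had other counts in KCl. Of the UDP-glucuronosyltransferases 1 was higher and 9 lower, against 13 and 3 in NaCl. Of the unfolded protein response genes 0 were higher and 10 lower, against 1 and 1, and of the heat shock genes 0 and 2, against 2 and 0. The epidermal peptides had a median of 0.01 in KCl, with 2 higher and 4 lower, against -1.28 in NaCl. These differences between lists were not tested as such. dod-24 was at -7.20 ± 0.33 in KCl and at -4.74 in NaCl, a difference of 2.46 that missed the threshold (edgeR adjusted p of the interaction 0.0734), and Y45F10D.6 was at -1.14 ± 0.41 in KCl and at -4.61 in NaCl, a difference of -3.47 with the same adjusted p. nlp-31 was at -2.64 ± 0.46 in KCl, a difference of -2.76 (edgeR adjusted p of the interaction 0.254). Its wild-type counts in KCl were 147, 179 and 154, below the 443 to 842 of wild type in NaCl, and its mutant counts in KCl were 44, 12 and 19. fipr-22 likewise had 184, 205 and 123 counts in KCl wild type and 1, 3 and 1 in the KCl mutant, with a genotype effect of -6.56 ± 0.55.

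**Figure D5:**
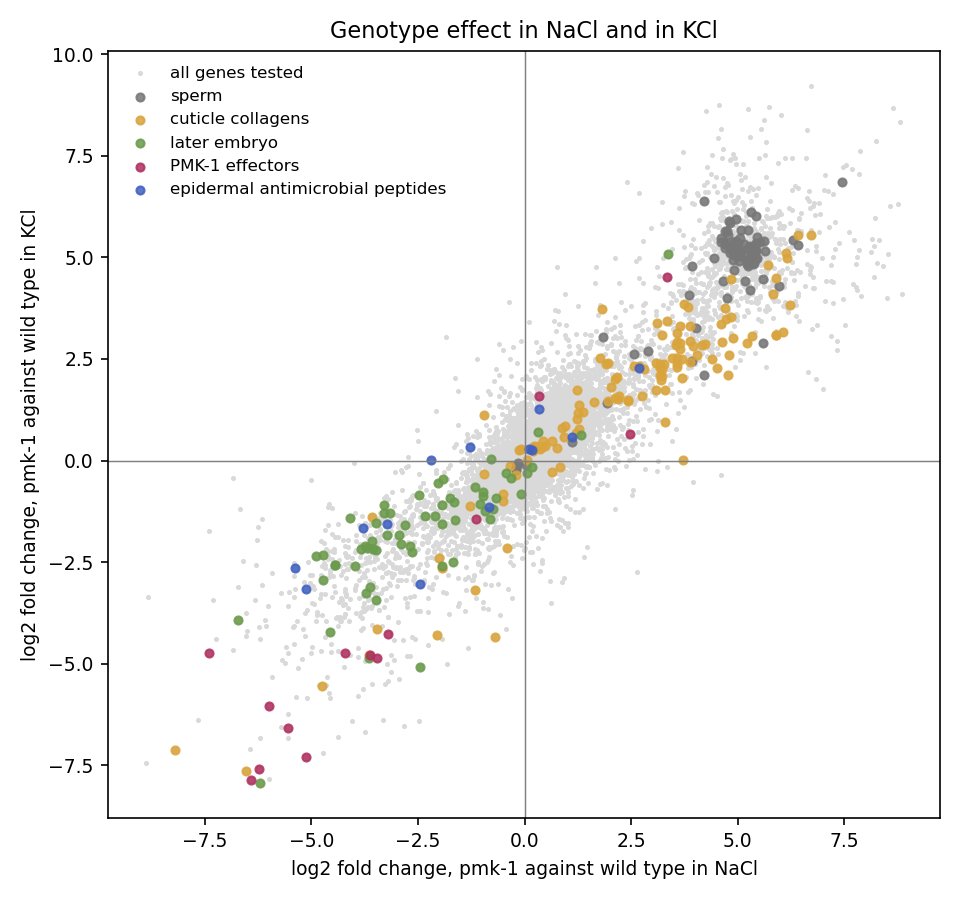
Genotype effect of each gene in NaCl (horizontal axis, log2 fold change) and in KCl (vertical axis, log2 fold change), grey for all genes tested and coloured for 5 lists. The points run along the diagonal with r of 0.91 (Pearson), with sperm genes at upper right and PMK-1 effectors at lower left.

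A test of the difference between the salts called 5 of 13353 genes (0.0374%), each with a genotype effect higher in NaCl than in KCl, and 669 genes had an unadjusted p under 0.05. They were acdh-2, an acyl-CoA dehydrogenase, asns-2, an asparagine synthetase, T27D12.1, Y58A7A.3 and Y58A7A.5. T27D12.1 was called between the genotypes in NaCl without each library, with 401, 426 and 618 counts in wild type and 1505, 1233 and 1071 in the mutant, 1.62 ± 0.16 (edgeR adjusted p 3.94e-04), while in KCl it was at -0.03 ± 0.16. In NaCl acdh-2 was at 0.41 ± 0.19 (edgeR adjusted p 0.13, and 0.0482 with the replicate block), against -2.52 ± 0.21 in KCl.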

How the data were processed

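RNA from whole animals was sequenced by Novogene as paired-end reads on Illumina NovaSeq machines, per the labels' protocols. The submitters' processing notes name DESeq2 1.40.2, RSEM 1.3.3, STAR 2.7.1a and R 4.3.1 without their roles; the sources used here give no build, annotation or strandedness. The deposited table holds expected counts per gene made by the authors, all of them whole numbers. Groups came from the genotype and salt labels. Of 46904 genes listed 46817 matched Ensembl release 115, and 64 share counts with a copy.

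Genes passing filterByExpr were scaled by TMM and tested with the edgeR 4.0.16 quasi-likelihood test (R 4.3.3, limma 3.58.1) on 1 mean per group over 12 libraries, adjusted by Benjamini-Hochberg over 13353 genes and called under 0.05. CPM values are TMM-scaled. DESeq2 1.42.0 and other scalings, filters, covariates and left-out libraries were alternatives. In NaCl, mutant and wild-type libraries of the same number had correlated deviations from their group means (0.423, 0.226 and 0.259 for numbers 1 to 3), so the replicate block is a pairing read from the data; number 2 also correlated with number 3 (0.243 and 0.216).

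Members and 34 gene lists were chosen with earlier results of these data known. Named genes are pmk-1, the cascade and the effectors, calls that held with both scores as covariates (mean of at least 5 CPM), and the 4 members of smallest adjusted p and the most abundant of each other list, of which those that describe the list are printed; other genes are said to be picked after seeing values. No sequences are printed.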

Additional observations from a re-analysis of the deposited data

Results flagged for a closer look

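A test of the salt by genotype interaction, across all 12 libraries, singled out 5 genes whose genotype effect differed between NaCl and KCl (edgeR, Benjamini-Hochberg). The difference of the log2 effects was 2.93 for acdh-2 (adjusted p 0.00455), with mean CPM of 101 in wild type and 134 in the mutant in NaCl and of 120 and 20.8 in KCl. It was 2.25 for asns-2 (adjusted p 0.00569), with 154 and 219 CPM in NaCl and 167 and 49.8 in KCl. For T27D12.1 it was 1.66, for Y58A7A.3 2.64 and for Y58A7A.5 3.09, each at an adjusted p of 0.0255. Y58A7A.3 went from 202 CPM in wild type to 409 in the mutant in NaCl and from 137 to 44.3 in KCl, and its neighbour Y58A7A.5, 4800 bp away, from 80.6 to 104.2 and from 37.7 to 5.69. In asns-2, Y58A7A.3 and T27D12.1 the mutant was the higher genotype in NaCl, at adjusted p 0.0406, 0.0122 and 3.94e-04. The asns-2 call was lost, at 0.0571 to 0.162, without any one of 8 libraries. These were pmk-1 NaCl 1 and 3, pmk-1 KCl 2 and 3, numbers 2 and 3 of wild type in NaCl and numbers 1 and 2 of wild type in KCl. That of Y58A7A.3 was lost at 0.0517 without wild-type NaCl 3. The count of genes called for the interaction under other settings is given below.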

How the results depend on the processing

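The counts of genes higher and lower in the mutant in NaCl moved most with the marker scores as covariates: 0 higher and 15 lower with the sperm score, 20 and 75 with the later embryo score, and 666 lower with the ribosomal RNA share. Without the first replicates 2081 genes were lower. Leaving out single libraries gave 1064 to 2651 higher and 625 to 1740 lower. The genes called in KCl numbered 28 with the sperm score, 769 with the embryo score, 4575 without the first replicates and 1390 to 4473 without single libraries. Interaction calls, 5 in the report, numbered 2 with library totals or the ribosomal RNA share, 19 with no filter on low counts, 40 with the sperm score, 59 with the embryo score, 97 without the first replicates, 107 with DESeq2 and 2 to 20 without single libraries. Some printed genes changed sign with a covariate. With the sperm score dct-17 was at -0.34, clec-60 at -0.75, catp-4 at -0.69, nkb-2 at -0.85, nhx-1 at -0.08, vit-5 at 0.17, col-19 at -0.06, msp-59 at -0.48 and asns-2 at -0.09. With the embryo score cebp-1 was at -0.06, dct-17 at -1.18 and vit-5 at 0.06, and with the ribosomal RNA share nsy-1 was at 0.73. The cause was not tested.

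With the replicate number as a block, 2221 genes were lower in NaCl and 40 were called for the interaction; this pairing is read from the data and not from the labels, and of the lists' counts that it moved by more than 1.5 times, those the report rests on are given there. In the alternatives other than single left-out libraries, the replicate block included, the printed genes kept direction and call in 912 of their values. They lost the call in 146, gained it in 23 and changed sign in 13. With the sperm score 34 values were kept, 57 lost the call and 9 changed sign. With the embryo score 41 were kept, 55 lost the call, 1 gained it and 3 changed sign. Without single libraries 1150 values were kept, 41 lost the call and 9 gained it. Sampling depth limits genes with under about 10 counts per library, such as C17H12.6, whose fold is a lower bound.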

Other observations

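By chromosome, the share of tested genes higher in the mutant in NaCl was 22.7% on chromosome IV and between 12.9 and 17.7% on the others. Within 1 Mb of pmk-1, which lies on IV, 21.6% of 370 genes were higher, and on the rest of IV 22.9% of 1945. The share lower was 15.1% on X and 13% on II, and between 7.04 and 9.11% elsewhere.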
